A study of Mus musculus with 36 samples.

Results

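Zfp42, the mouse gene of the zinc finger protein Rex1, was read by 1 probe of the 24613 on a one-colour Illumina bead array, 1 of 15967 genes that the array annotation names. It was chosen because earlier results of these data had shown a large fall of its signal in every set of induced pluripotent stem (iPS) cells against embryonic stem (ES) cells. Since the gene was chosen by its iPS and ES values, those levels are given as a description without a test. The series holds 36 arrays, each of total RNA from 1 culture. Mouse embryonic fibroblasts (MEFs) were reprogrammed by overexpression of Oct4, Sox2, Klf4 and Tbx3 (OSKT, 11 clones), of Oct4, Sox2 and Klf4 (OSK, 11 clones), or of Oct4, Sox2 and Esrrb (OSE, 8 clones). The ES lines were D3, kept on a medium labelled for MEFs (2 biological replicates), and R1, kept on mouse ES cell medium (4 biological replicates), so that line and medium cannot be told apart. Oct4 and Sox2 are shared by all 3 iPS sets and by no ES sample. Each iPS clone is 1 array, and neither the strain of the fibroblasts nor the vector that carried the factors is given in the sources used here.

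Rex1 is a C2H2 zinc finger protein of the YY1 family, whose gene arose in placental mammals from a copy of Yy1. In mouse ES cells it marks the naive state of the inner cell mass, its transcript is lost early when cells move towards the primed epiblast, and it is widely used to score reprogramming, although mouse ES cells can self-renew without it. Its promoter is known as a target of Oct4, Sox2, Nanog and Krüppel-like factors, and in female mouse cells the ubiquitin ligase Rlim (Rnf12) removes Rex1 protein at the onset of X inactivation.

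The promoter is shown because Oct4 was supplied to all iPS clones and Klf4 to the OSKT and OSK clones. The window is RefSeq's, on build GRCm38.p6 at chr8:43306960-43307259 on the minus strand. It runs 5′ to 3′ along the gene from 250 bases before the transcription start to 50 bases after it. Capitals mark the octamer ATTTGCAT, the motif of Oct4 and other POU factors, 186 bases before the start, and the box CCACACCC of Krüppel-like factors, 75 bases before the start.
Zfp42 promoter: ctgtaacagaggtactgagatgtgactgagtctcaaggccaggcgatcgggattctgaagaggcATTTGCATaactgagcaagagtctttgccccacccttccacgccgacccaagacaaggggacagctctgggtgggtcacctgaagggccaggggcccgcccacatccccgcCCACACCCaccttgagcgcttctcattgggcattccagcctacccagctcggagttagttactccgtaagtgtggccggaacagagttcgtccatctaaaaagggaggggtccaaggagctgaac
Each motif was searched on both strands. The octamer was found in 570 of 32851 such windows of RefSeq genes (1.74%), and the CCACACCC box in 1170 (3.56%). Both stood together in 14 windows (0.0426%), that of Zfp42 among them. The element TCAAGGTCA, read by Esrrb and Nr5a2, had no match in the Zfp42 window and was present in 139 windows (0.423%). A match describes the letters of the window and not a bound site.

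Signals here are the deposited intensities, which were not scaled between arrays, and normalized log2 values made from them. Each array has a detection threshold, estimated from its own negative signals, and a probe brighter than it is called above background. The threshold ran from 45.2 to 90.8 intensity units. Between 8675 and 9720 of 18720 measured probes were above background per array, and OSKT clone 4, the brightest array, had the highest threshold. By root mean square difference, pairs of clones as close as the R1 replicates made up 6 of 55 OSKT pairs, 7 of 55 OSK pairs and 3 of 28 OSE pairs. Averaging such arrays leaves 6 OSKT, 6 OSK and 5 OSE samples, 1 D3 sample and 1 R1 sample.

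The Zfp42 probe was bright in ES cells and close to the detection threshold in every iPS clone. In OSKT clones its intensity was 71.6 at the lowest (clone 3), 121.8 at the median and 267.6 at the highest (clone 4). OSK clones had 100.6 at the lowest (clone 4), 137.3 at the median and 200.6 at the highest (clone 11). OSE clones had 64 at the lowest (clone 8), 142.15 at the median and 201.3 at the highest (clone 6). The ranges of the 3 iPS sets overlapped and no clone of any set came near the ES lines. D3 cells had 5198.5 and 6083.5, and R1 cells had 7758.3, 7570.5, 9500.1 and 8517.5. The dimmest ES array was thus 19.4 times as bright as the brightest iPS array, and the mean over all iPS clones (134.7 ± 43.4, SD, n = 30) was 2.39% of the D3 mean and 1.62% of the R1 mean. In RNA from whole cultures, fewer cells with the transcript and less transcript per cell cannot be told apart.

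**Figure D1:**
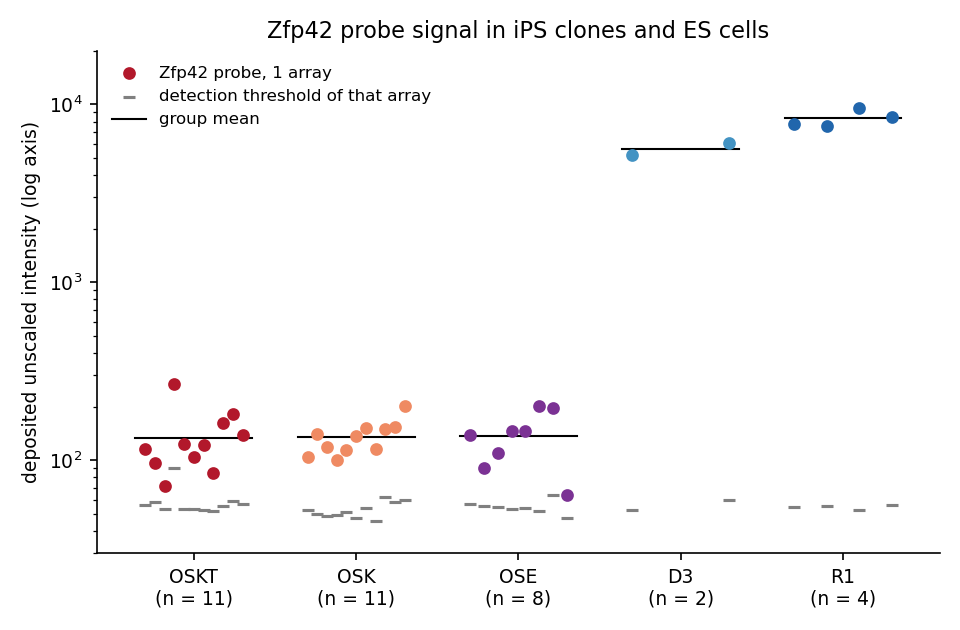
Deposited unscaled intensity of the Zfp42 probe on a log axis, 1 point per array, with the mean of each group as a bar. The 30 iPS clones lie between 64 and 267.6 and the 6 ES arrays between 5198.5 and 9500.1.

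The remaining iPS signal was above background on 30 of 30 clones. It stood at 1.35 to 3.91 times the detection threshold of its array in iPS clones, against 99.2 to 181 times in ES cells. The probe therefore did not read 0 in any clone, but its signal lay in the range where the background subtraction weighs on the value. The size of the fall depended on the processing. The ratio of mean intensities, ES over iPS, was 42.4 (OSKT), 41.8 (OSK) and 41.3 (OSE) for D3, and 62.6, 61.8 and 61.1 in the same order for R1. On the normalized scale the fall was 27-fold, 24.5-fold and 25.4-fold against D3, and 36.9-fold, 33.6-fold and 34.7-fold against R1, for OSKT, OSK and OSE. That scale follows background correction with an offset of 16 intensity units and quantile normalization, and the part of the offset alone was not tested. The comparisons with 1 ES line share its arrays.

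The normalized log2 level of Zfp42 was 7.61 ± 0.264 in OSKT (SD, n = 11), 7.74 ± 0.16 in OSK (n = 11) and 7.69 ± 0.266 in OSE clones (n = 8), against 12.36 ± 0.0671 in D3 (n = 2) and 12.81 ± 0.0694 in R1 cells (n = 4). From low to high the groups run OSKT, OSE, OSK, D3 and R1, and the neighbours among the 3 iPS sets lie within their spread. The choice of the gene did not use the iPS sets against each other, so these differences were tested with limma over 10533 features. OSKT and OSK clones differed by -0.14 on the log2 scale (95% interval -0.32 to 0.05, adjusted p = 0.26 from limma), a comparison in which 35.5% of all features were called at an adjusted p under 0.05. For OSE against OSK the difference was -0.05 (-0.25 to 0.15, limma adjusted p = 0.711, 45.8% of features called), and for OSE against OSKT it was 0.09 (-0.12 to 0.29, limma adjusted p = 0.468, 60.1% called). None of the 3 passed, and each interval is narrow beside the distance of the sets from either ES line.

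Clone numbers split the clones of a set. Clones 1 to 4 of OSKT averaged 7.35 ± 0.19 and clones 5 to 11 averaged 7.76 ± 0.16 (SD, n = 4 and 7). OSK clones averaged 7.65 ± 0.19 and 7.80 ± 0.12 in the same ranges, and OSE clones 7.59 ± 0.18 and 7.80 ± 0.32. The mean signal of 18 fibroblast genes moved with these ranges, at 9.91 and 9.34 in OSKT, 10.03 and 9.34 in OSK, and 10.32 and 10.07 in OSE. The part of that signal in the Zfp42 difference between the ranges was not tested. Within clones 1 to 4 Zfp42 was lower in OSKT than in OSK (log2 difference -0.30, limma adjusted p = 0.0339) and higher in OSE than in OSKT (0.24, limma adjusted p = 0.048). Within clones 5 and above the differences were -0.04 (adjusted p = 0.761) and 0.04 (adjusted p = 0.775, both limma). The change of the OSKT to OSK difference between the ranges did not itself pass (0.26, limma adjusted p = 0.232). By near-identity, clones 1 to 4 formed 2 clusters in OSKT, 1 in OSK and 2 in OSE, so that the calls within that range rest on fewer distinct samples than arrays.

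Between the ES lines, both D3 arrays lay below all 4 R1 arrays. The log2 difference was -0.45 (95% interval -0.83 to -0.08), and it did not pass after adjustment (limma p = 0.0201, adjusted p = 0.129, with 9.73% of features called). It passed where the fit held only D3 and R1 (limma adjusted p = 0.000202) or weighted the arrays (limma adjusted p = 0.000942), and not where near-identical arrays were averaged, which leaves 1 sample per line (limma adjusted p = 0.979).

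Many other markers of naive pluripotency fell in iPS clones too, each by less than Zfp42, and a few rose. Of 23 genes on the naive list, 20 had a probe and all 20 were tested. The counts include Nr0b1, which was above background on ES arrays alone. Against R1, 12 fell and 2 rose in OSKT clones, where 54.3% of all features were called, 27.9% lower and 26.4% higher. In OSK clones 15 fell and 2 rose (53.8% of features called, 28% lower and 25.8% higher), and in OSE clones 18 fell and 1 rose (58.7% called, 29.9% lower and 28.7% higher). Their median log2 differences were -0.77, -0.94 and -1.70, where all features had medians between -0.00 and 0.01. Against D3, 9 fell and 3 rose in OSKT (48.2% of features called, 26% lower and 22.2% higher), 11 fell and 4 rose in OSK (46.6%, 25.5% lower and 21.1% higher), and 15 fell and 1 rose in OSE clones (48.3%, 26.3% lower and 21.9% higher). In D3 against R1, 2 fell and 1 rose (5.1% of features lower and 4.63% higher). The list was chosen with earlier results of these data known.

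Nr5a2, a nuclear receptor that can take the place of Oct4 in reprogramming mixes, fell most like Zfp42. Its intensity ran between 92 and 263.2 in OSKT, 77 and 141.4 in OSK, and 50 and 168.5 in OSE clones, against 628.3 and 826.8 in D3 and 987.9 to 1263.2 in R1. The iPS sets overlapped each other, and every iPS array lay below every ES array, as on 8.97% of all features. Nr5a2 was 5.06-fold lower in OSKT (limma adjusted p = 2.85e-17), 5.22-fold lower in OSK (limma adjusted p = 1.79e-17) and 5.69-fold lower in OSE clones (limma adjusted p = 1.87e-17) than in R1. Gbx2, a homeobox gene that acts downstream of LIF and Stat3, changed by -2.50, -2.28 and -1.68 on the log2 scale against R1 (OSKT, OSK and OSE in this and the following triples). Zfp296, a partner of Klf4, changed by -1.42, -1.97 and -2.19, and Tet2, an enzyme that oxidises methylated cytosine, by -1.31, -1.68 and -2.02. Nr0b1 (Dax1), a repressor bound to Oct4 and Nr5a2 in ES cells, was not above background on any iPS array and was at least 1.57-fold, 1.57-fold and 1.52-fold lower than in R1. Nr0b1 was kept for testing through its 6 ES arrays alone, so the direction of its difference was fixed in advance. The other genes named here passed the test. Nr5a2 and Tet2 were each above background on 7 of 8 OSE arrays and on every array of the other groups.

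The Krüppel-like factors, whose box stands in the promoter shown above, fell in all 3 sets. Klf4 changed by -1.31, -1.47 and -2.22 against R1, Klf2 by -0.79, -1.03 and -1.72, and Klf5 by -1.34, -1.35 and -1.76. Klf4 intensity was 353.7 to 1240.3 in OSKT, 400.7 to 962.9 in OSK and 162.4 to 514.1 in OSE clones, against 1274.5 and 1817.9 in D3 and 1993 to 2251.9 in R1. OSKT and OSK clones, which received Klf4, thus still lay below both ES lines, and whether the probe reads the transgene is not known. Klf4 was lower in OSE than in OSK clones by 0.75 on the log2 scale (limma adjusted p = 0.00025). Zfp42, close to the detection threshold in both sets, did not pass in that comparison.

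Many naive markers were lower in OSE than in OSK clones. Zfp42 did not pass in that comparison, but its signal was close to the detection threshold in both sets, where a further fall is hard to read. Of the 20 naive genes, 14 were lower and 1 was higher in OSE than in OSK clones (22.6% of features lower and 23.2% higher), with a median difference of -0.63. Against OSKT clones 15 were lower and 2 higher in OSE clones (29.5% of features lower and 30.6% higher). Jam2, a junction adhesion molecule, changed by -0.85, -0.94 and -3.18 against R1 and was lower in OSE than in OSK clones by 2.24 (limma adjusted p = 9.31e-15). Tcl1, an Akt coactivator, changed by -0.49, -1.11 and -2.64, and Tbx3, the T-box factor of the OSKT set, by -0.29, -0.40 and -1.77. Of these, Tcl1 did not pass in OSKT (limma adjusted p = 0.0523) and Tbx3 passed in OSE clones. Pecam1, an adhesion receptor, changed by -0.41, -0.94 and -1.76, and Fgf4, the growth factor that starts exit from the naive state, by 0.39, -0.55 and -1.51. Pecam1 passed in OSK and OSE and Fgf4 in OSE clones. With fibroblast signal as a covariate the Fgf4 difference in OSE was 0.02 (limma adjusted p = 0.958), and with near-identical arrays averaged it was -1.29 (limma adjusted p = 0.146). In OSKT Fgf4 was -0.47 within clones 1 to 4 (limma adjusted p = 0.00107) and 0.89 within clones 5 and above (limma adjusted p = 0.000598).

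Esrrb, the orphan nuclear receptor supplied in the OSE set, changed by -0.82, -0.75 and -1.62 against R1. Nanog, the homeobox factor of the naive core, changed by -0.23 in OSKT (limma adjusted p = 0.152), -0.50 in OSK and -0.995 in OSE clones, of which the last 2 passed. Tfcp2l1 changed by -0.32, -0.34 and -1.13 and passed in OSK and OSE clones. The LIF pathway gene Stat3 changed by -0.75, -0.54 and -0.57, all past the test, and its feedback inhibitor Socs3 by -0.35, -0.18 and -0.74, past the test in OSKT and OSE. Several of these calls ended under an alternative. With fibroblast signal as a covariate Socs3 was -0.07 in OSKT and -0.031 in OSE, and Tfcp2l1 was -0.175 in OSK. Averaging near-identical arrays leaves 1 R1 sample, so that calls can be lost through the sample number alone. In OSK it ended the calls of Nanog, Esrrb, Tfcp2l1, Tcl1 and Pecam1, at differences of -0.48, -0.663, -0.273, -0.964 and -0.817. The calls of Jam2 in OSKT and OSK, of Sox15 in OSKT, and of Socs3 in OSKT and OSE also ended. OSKT against OSK clones gave a mixed picture, with 6 naive genes higher and 2 lower (19.5% of features higher and 16% lower, median of the list 0.07).

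Dppa3 (Stella), a maternal factor that protects methylation at imprinted loci, went the other way. Its intensity had a median of 2325.9 in OSKT, 2232.4 in OSK and 2567.4 in OSE clones, against a mean of 381.4 in D3 and 73.1 in R1. The rise against R1 was 4.23, 4.35 and 4.36 on the log2 scale, opposite in sign to Zfp42 and past the test in each set. Sox15, a relative of Sox2, rose in OSKT (0.55) and OSK clones (0.98), while its difference in OSE was -0.10 (limma adjusted p = 0.682). Low Zfp42 was thus measured beside high Dppa3 on all 30 iPS arrays.

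**Figure D2:**
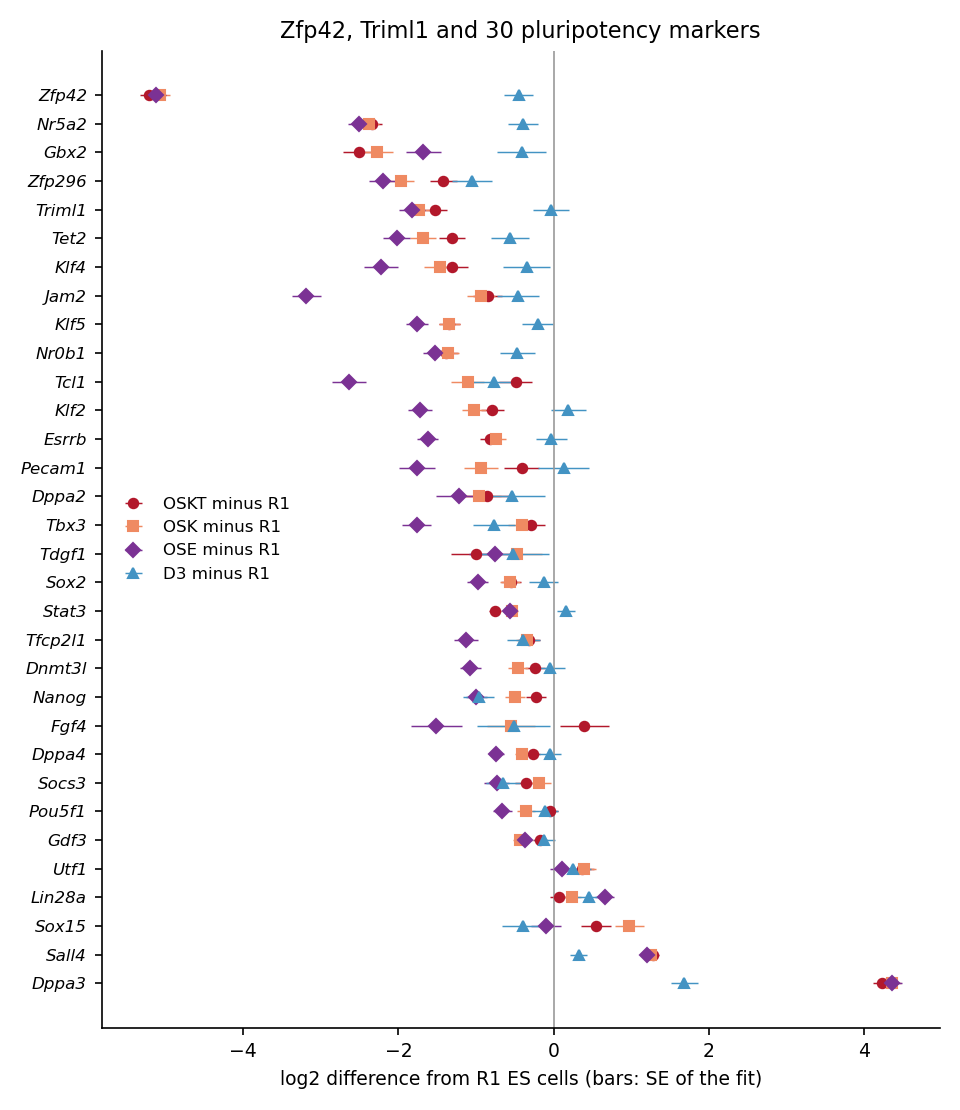
Log2 difference from R1 for Zfp42, Triml1 and the 30 tested naive and core pluripotency genes, with the standard error of the fit as bars, for OSKT, OSK and OSE clones and D3 cells. Zfp42 lies farthest to the left in all 3 iPS sets and Dppa3 farthest to the right. The Zfp42 values chose the gene and carry no test.

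Core pluripotency genes had smaller median differences from R1 than the naive genes. Of 10, all tested, 4 fell and 2 rose in OSKT, and 6 fell and 2 rose in OSK and also in OSE clones, with medians of -0.21, -0.42 and -0.70 against R1. Of all features 27.9%, 28% and 29.9% fell and 26.4%, 25.8% and 28.7% rose in these comparisons. Pou5f1, the gene of Oct4, changed by -0.05 in OSKT (limma adjusted p = 0.72), -0.36 in OSK and -0.66 in OSE clones. Sox2 changed by -0.55, -0.57 and -0.98. Sall4, a zinc finger partner of Oct4, rose by 1.28, 1.26 and 1.20, and Lin28a, a binder of let-7 precursors, rose in OSE clones alone among the 3 sets (0.66). Dppa2 changed by -0.86, -0.96 and -1.22, and its partner Dppa4 by -0.27, -0.40 and -0.74. Dnmt3l, a cofactor of DNA methylation, changed by -0.24, -0.46 and -1.07, Gdf3, a Nodal-like ligand, by -0.18, -0.44 and -0.37, and Tdgf1, the Nodal coreceptor, by -1.005, -0.47 and -0.75. Dnmt3l and Gdf3 passed in OSK and OSE and Tdgf1 in OSKT clones. Utf1, a chromatin factor of ES cells, changed by 0.36, 0.39 and 0.11 and passed in the first 2. With fibroblast signal as a covariate Pou5f1 was -0.119 in OSK and -0.125 in OSE, neither past the test. Averaging near-identical arrays ended the calls of Pou5f1, Gdf3 and Dnmt3l in OSK, of Sox2, Dppa4 and Utf1 in OSKT and OSK, of Dppa2 in all 3 sets, of Tdgf1 in OSKT and of Gdf3 in OSE.

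Markers of the primed epiblast did not move as a block. Of 16 genes, 10 were tested, and 4 rose and 2 fell in OSKT, 5 rose and 4 fell in OSK, and 5 rose and 2 fell in OSE clones against R1, where 26.4%, 25.8% and 28.7% of all features rose and 27.9%, 28% and 29.9% fell. Fgf8, counted as a rise in all 3 sets, was above background on iPS arrays alone, so its direction was fixed in advance. Cer1, tested but not called, was also kept through iPS arrays alone. Fgf5, a classic epiblast growth factor, was above background on 7 of 11 OSKT, 10 of 11 OSK and 8 of 8 OSE arrays, 1 of 2 D3 arrays and no R1 array. It was at least 2.29-fold, 2.5-fold and 4.86-fold higher than in R1. Clones 1 to 4 of each set were the bright ones. Their normalized log2 signal was 9.35 to 9.88 in OSKT, 9.78 to 10.1 in OSK and 10.19 to 10.35 in OSE, while clones 5 and above had 6.87 to 7.9, 6.98 to 7.69 and 7.19 to 8.86, against 6.93 to 7.13 in D3 and 6.18 to 6.71 in R1. Dnmt3b, a DNA methyltransferase, rose by 0.52, 0.76 and 1.18 and Pou3f1 (Oct6) by 0.51, 0.66 and 1.18, and both were also higher in D3 than in R1 (by 0.93 and 1.28), where Zfp42 is bright. Otx2, a homeobox factor of the epiblast, fell by 0.605, 1.11 and 1.88, and Nodal, an epiblast ligand, also fell in all 3 sets.

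Other cell type markers moved with the iPS clones. The mean over 10 trophoblast genes was 9.43 ± 0.478 in OSKT, 9.76 ± 0.221 in OSK and 9.29 ± 0.34 in OSE clones, against 7.72 ± 0.00346 in D3 and 7.54 ± 0.052 in R1. Of these genes, 9 of 10 rose in OSKT, 10 of 10 in OSK and 7 of 10 in OSE clones against R1, where 26.4%, 25.8% and 28.7% of all features rose. Gata3, which rose in all 3 sets, and Hand1, which rose in OSKT and OSK, were above background on iPS arrays alone. The direction of these rises was thus fixed in advance. Tead4 fell in OSE (limma adjusted p = 0.00549), with 0 of 8 OSE and 3 of 4 R1 arrays above background. The defining marker Elf5 was above background on 0 arrays. The mean over 18 fibroblast genes was 9.55 ± 0.299, 9.59 ± 0.389 and 10.19 ± 0.347 in the 3 sets, against 8.53 ± 0.00177 in D3 and 9.11 ± 0.0354 in R1. Of those 18 genes 6, 10 and 14 rose against R1, beside the same shares of all features. Dcn was at least 1.71-fold lower in OSKT and in OSK clones, Fn1 changed by -0.39 in OSE clones (limma adjusted p = 0.0275), and Col5a2, Postn, Lum and Cdh11 were above background on 0 arrays and Dcn on 0 of 11 OSKT and 0 of 11 OSK arrays. The mean over 9 primitive endoderm genes was 9.19 ± 0.767, 9.42 ± 0.405 and 8.89 ± 0.25 in the sets, against 8.25 ± 0.0188 in D3 and 8.57 ± 0.0535 in R1, with 2, 5 and 3 genes that rose, of which the OSKT and OSE counts lie near the share of all features. The part of other cells in the Zfp42 level was not tested.

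The tested partners of Rex1 had smaller differences than Zfp42 itself, and no relative could be tested. Of the YY family, Yy1 was not above background on any array and Yy2 had no probe. Rlim, the ligase that removes Rex1 protein, changed by 0.29 in OSKT (limma adjusted p = 0.0303), 0.02 in OSK (limma adjusted p = 0.923) and 0.23 in OSE clones (limma adjusted p = 0.0944) against R1, and was higher in D3 than in R1 by 0.72 (limma adjusted p = 0.00365). Rybp, a YY1-binding Polycomb protein, fell by 0.26, 0.44 and 0.62, and Rnf2 (Ring1b), a Polycomb ubiquitin ligase, changed by -0.71, -0.23 and -0.26, of which the first passed. Peg3, an imprinted gene reported as a mouse Rex1 target, changed by 0.97, 0.71 and 0.46 and Gnas, another, by -0.26, 0.10 and 0.39. Peg3 passed in OSKT and OSK, and Gnas in OSE clones. With near-identical arrays averaged none of these 3 calls remained, nor those of Rlim and Rnf2 in OSKT and of Rybp in OSKT and OSK, and with fibroblast signal as a covariate Gnas in OSE turned to -0.189 and Peg3 in OSK was 0.287. Tcstv3, a gene of the 2-cell-like state, had median intensities of 2010.3 in OSKT, 1162.4 in OSK and 438.4 in OSE clones, against means of 694.8 in D3 and 2529 in R1. Tcstv3 changed by -0.10, -0.77 and -2.44 against R1, and the last 2 passed (the OSK call ended with near-identical arrays averaged), so that OSKT clones had low Zfp42 beside a Tcstv3 signal that did not differ detectably from R1 (limma adjusted p = 0.795).

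Eif2s3y, a Y-linked translation factor gene, was above background on 0 of 11 OSKT and 1 of 11 OSK arrays but on 8 of 8 OSE, 2 of 2 D3 and 4 of 4 R1 arrays, while Zfp42 was low in all 3 iPS sets.

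Next to Zfp42 on chromosome 8, Triml1, a tripartite motif gene of the early embryo, was also lower in iPS clones. Triml1 is the nearest gene on the side of lower coordinates with a measured probe, with 3 annotated genes between. Its intensity was 981.3 at the lowest, 1264.4 at the median and 2043.1 at the highest in OSKT clones. It was 689.6, 908.7 and 1493.5 in OSK and 661.8, 1012.9 and 1823.8 in OSE clones, against 3629.8 and 4712.4 in D3 and 4334 to 5048.2 in R1. No iPS array reached an ES array. Triml1 was 2.88-fold lower in OSKT (limma adjusted p = 2.35e-10), 3.33-fold lower in OSK (limma adjusted p = 1.15e-11) and 3.54-fold lower in OSE clones (limma adjusted p = 9.66e-12) than in R1, and 2.8-fold, 3.24-fold and 3.45-fold lower than in D3. D3 and R1 differed by -0.04 (95% interval -0.51 to 0.43). Its RefSeq promoter window held none of the 3 motifs searched.

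Farther on that side, Asah1, a lysosomal ceramidase, was 1.25-fold, 1.18-fold and 1.24-fold lower in OSKT, OSK and OSE clones than in R1, all past the test and none of them past it with near-identical arrays averaged, and Frg1 was not above background on any array. On the side of higher coordinates the nearest measured probes, for Adam26b, Adam34 and Mtnr1a, were not above background on any of the 36 arrays. A fall of neighbours beyond Triml1 and Asah1 could thus not be read there.

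Zfp42 had the largest common fall on the array. For each feature the smallest of its 6 falls (3 iPS sets against each of 2 ES lines) was taken. That value was -4.62 for Zfp42 (24.5-fold), and the next were Stag3, a meiotic cohesin subunit, at -2.63 (6.19-fold), Chac1, a glutathione-degrading enzyme of the stress response, at -2.61 (6.09-fold), a probe without a symbol at -2.58, and Nphs1, nephrin of the kidney filter, at -2.33 (5.01-fold). Of all features 135 (1.28%) were lower by at least 2-fold in all 6, 14 (0.133%) by at least 4-fold, and Zfp42 by itself (0.00949%) by at least 8-fold. The gene was chosen for this fall, so the rank is a description. In the other direction, a probe without a symbol rose by at least 5.08 in all 6 comparisons (33.9-fold), and 7 features rose by at least 8-fold. On 945 of 10533 features (8.97%) every iPS array lay below every ES array, and on 676 (6.42%) above. Of the 30 naive and core genes 9 lay wholly below, namely Esrrb, Klf2, Klf4, Klf5, Nr0b1, Nr5a2, Gbx2, Tet2 and Stat3, and 2, Dppa3 and Sall4, wholly above. Nr0b1 among them was above background on ES arrays alone.

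**Figure D3:**
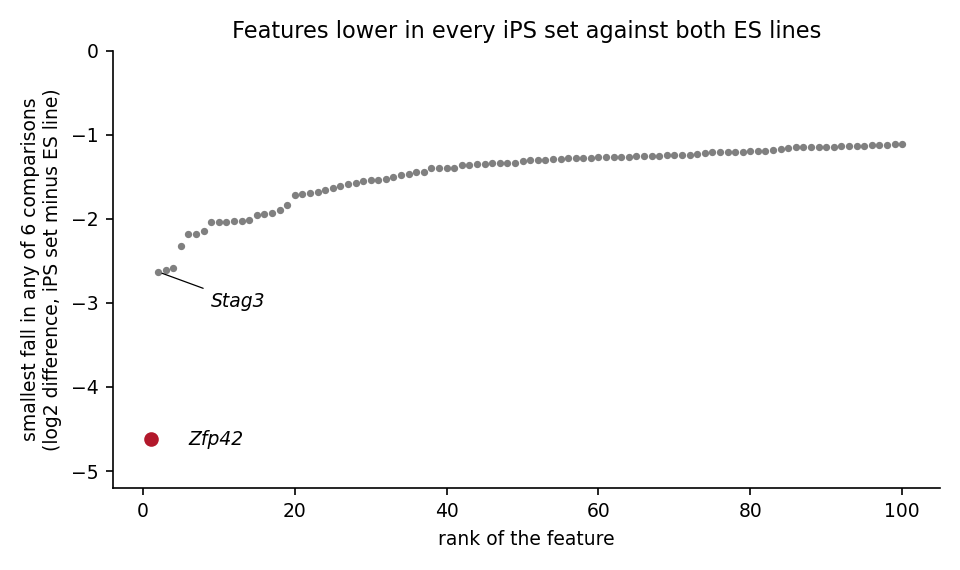
The features with the largest common fall, ranked, with the smallest of 6 log2 differences (OSKT, OSK and OSE, each minus D3 and minus R1) on the vertical axis. Zfp42 stands at -4.62 and the next feature, Stag3, at -2.63.

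Over all 36 arrays the features most like Zfp42 were Pmel, a melanosome protein (Pearson's r = 0.971), Wdr64 (0.970), Nr5a2 (0.970), Epc2, a chromatin protein (0.969), Zfp607b (0.968) and Apod, a lipid carrier (0.965). These values mostly restate the step between iPS and ES arrays, which all points share, and are given without a test. Pmel was at least 3.07-fold lower in OSKT and at least 2.97-fold lower in OSE clones than in R1, with 0 arrays of either set above background. In OSK clones 1 of 11 arrays was above background. Epc2 was lower by 1.89-fold, 1.88-fold and 1.76-fold, so that a small and even step also gives a high r.

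Within the iPS clones, with the mean of each set taken out, the most similar feature of 10532 was Klf4 (r = 0.775 and Spearman's rho = 0.721 over 30 clones). It was followed by Capsl (0.773), Tm7sf3 (0.757), Jam2 (0.747), Enah, an actin regulator (0.741), and Asnsd1 (0.738). OSKT clone 3 was lowest in its set for both genes, at -0.45 for Zfp42 and -0.82 for Klf4 from the set mean, and OSKT clone 10 was highest for both, at 0.34 and 0.45. The r with Klf4 was 0.914 in OSKT, 0.371 in OSK and 0.739 in OSE clones. It was 0.696 without OSE clone 6 and OSKT clone 3, the clones farthest from the median, 0.660 within clones 1 to 4 (n = 12, which form 5 near-identical clusters), 0.630 within clones 5 and above (n = 18), and 0.832 with near-identical clones averaged (n = 17). The rank of Klf4 depended on the version, at 5 with near-identical clones averaged, 11 on the scaled table (r = 0.695) and 31 with the mean of each clone range taken out as well (r = 0.641). The points share the array, the quantile normalization and, for some, near-identical clones, and the Zfp42 signal was close to background on all of them.

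**Figure D4:**
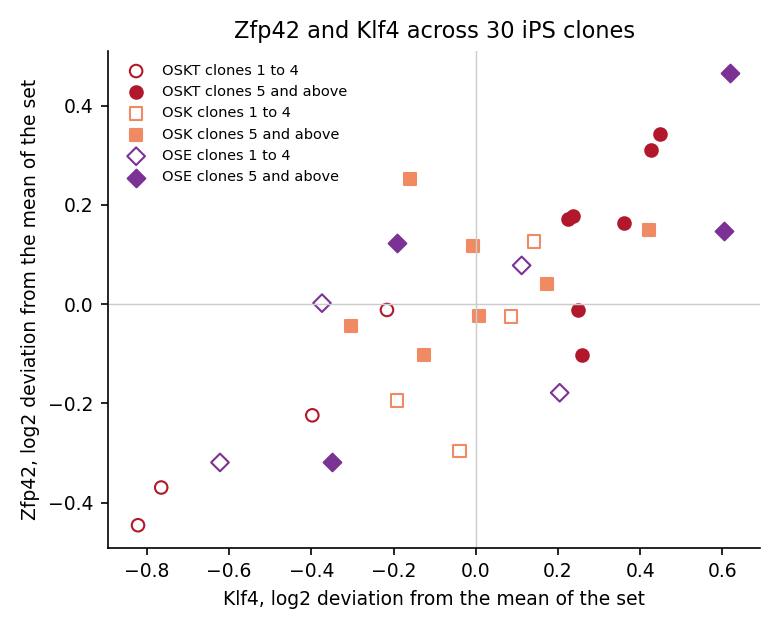
Deviation of Zfp42 (vertical) and Klf4 (horizontal) from the mean of the clone's set on the log2 scale, 1 point per iPS clone, open for clones 1 to 4 and filled for clones 5 and above. Clones low in Klf4 tended to be low in Zfp42 (r = 0.775, n = 30), least closely in OSK (r = 0.371), and OSKT clones spread the farthest along Klf4 at its low end.

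The same measure was taken for each list. Of the naive genes 19 of 20 had a positive r with Zfp42 (median 0.457) and of the core genes 9 of 10 (median 0.457), against 51.3% of all features (median 0.011). The naive genes include Nr0b1 (r = 0.447), which was not above background on any iPS array. In the other lists, Cer1, Sox17 and Hand1 were each above background on 9 arrays, all of iPS clones. All 10 primed genes (median -0.324) and all 9 primitive endoderm genes (median -0.421) had a negative r, as did 15 of 18 fibroblast genes (median -0.277) and 6 of 10 trophoblast genes (median -0.264). With the mean of each clone range taken out as well, the medians were 0.188 (naive), 0.246 (core), -0.108 (primed), 0.097 (primitive endoderm), 0.281 (fibroblast) and 0.178 (trophoblast), so that the sign of the last 3 turned. The median of all features in that version was -0.045. On the scaled table the list medians were 0.256 (naive), 0.243 (core), -0.111 (primed), -0.188 (primitive endoderm), -0.032 (fibroblast) and -0.054 (trophoblast), and that of all features was 0.006. The mean of the fibroblast genes had r = -0.28.

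**Figure D5:**
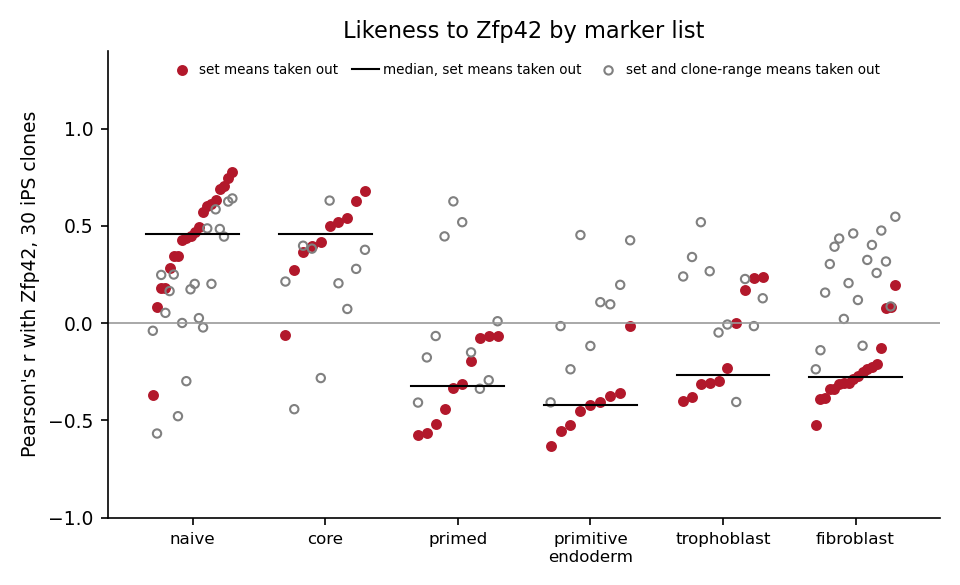
Pearson's r with Zfp42 over the 30 iPS clones for each tested gene of 6 lists, with the means of the 3 sets taken out (filled, with the median as a line) and with clone-range means taken out as well (open). Naive and core genes lie mostly above 0, and the fibroblast, primitive endoderm and trophoblast medians change sign between the 2 versions.

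A probe can lose signal where the sampled genome differs from the probe's sequence. Both ES lines come from related inbred mice, and the strain of the fibroblasts is not given in the sources used here, so origin and reprogramming cannot be told apart for a single probe. The sequence of the Zfp42 probe was not used here, and whether a variant lies under it was not tested. A pseudogene, Zfp42-ps1, is annotated on chromosome 15, and whether the probe reads it is not known. No second probe carries the symbol Zfp42 in the array annotation. Whether any of the 3628 probes without a symbol reads its transcript was not tested.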

How the data were processed

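Gene expression was measured in 36 samples on a one-colour Illumina bead array. Per the labels' protocols, total RNA was purified on silica columns and labelled as biotin cRNA, and per the submitters' processing notes the arrays were read with BeadStudio (version not given in the sources used here). The authors deposited unscaled intensity values, from which a background had already been subtracted (25.4% to 29.6% of measured probes were below 0), and a table of intensity values scaled between arrays, whose floor is 20.

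Of 24613 probes, 5893 held placeholder values between -5.3 and 14.7 on every array and were left out. The other 18720 were background-corrected (normal-exponential model, saddle-point, offset 16), normalized between arrays by quantiles and log2-transformed. A probe was above background past the 99th percentile of a normal distribution fitted to the array's negative signals. The 10572 probes that passed this on 4 or more arrays were reduced to the brightest of each gene, leaving 10533 features (9235 with a symbol). Symbols came from the supplied annotation (20984 probes with 1 symbol, 1 with several, 3628 with none).

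Group means were compared in limma 3.58.1 (R 4.3.3, statmod 1.5.0), in 1 model of the 5 groups on all 36 arrays whose moderated variance had an intensity trend. Tests were 2-sided with Benjamini-Hochberg adjustment across features, and calls had an adjusted p under 0.05. The fit was checked on simulated data. Every clone entered as 1 sample, so that p-values measure only the spread between arrays, which may be technical, and the number of arrays limits the precision. A fold against a group with no array above background was computed against each array's lowest signal above background and given as "at least".

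The gene, the lists and the rule for named genes (all tested naive and core genes, Rex1 relatives and partners, up to 4 of each other list, the 3 nearest measured genes on either side, and the 6 most similar features over 36 arrays and over 30 clones) were chosen with earlier results of these data known. Genes of the other lists named as above background on 0 arrays or on iPS arrays alone were chosen after their values were seen. So were Tead4, Dcn and Fn1, and the leading features by common fall. Alternatives were the scaled table, median scaling, no background correction, other filters, array weights, a fit of the compared groups alone, a block for the replicate number, averaging of near-identical arrays, clone ranges, fibroblast signal as a covariate, and each array left out.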

Additional observations from a re-analysis of the deposited data

Results flagged for a closer look

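Across 80 sets of 4 to 10 arrays (40 genes in OSE and R1), Dixon's ratio set 6 values apart from the rest of their group, where chance alone would set apart about 1 in 20. None was a Zfp42 value. In OSE clone 8, the lowest clone of that set for Zfp42 intensity, 4 genes were far below the next clone: Dppa2 at 7.80 against 9.87 (ratio 0.729), Tdgf1 at 7.81 against 8.78 (0.56), Rnf2 at 7.12 against 8.32 (0.707) and the Y-linked Eif2s3y at 8.75 against 10.43 (0.739), all normalized log2 signals. Dppa3 was high in OSE clone 7 at 11.92, against 11.51 in the next clone (0.622). Rnf2 was low in R1 replicate 3 at 8.42, against 8.77 in the next (0.941). Without OSE clone 8 the Zfp42 difference was -0.00 for OSE against OSK (limma adjusted p = 0.974) and 0.13 for OSE against OSKT (limma adjusted p = 0.257).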

How the results depend on the processing

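The fall of Zfp42 kept its direction in every alternative run. For all iPS clones it moved to -6.18 against R1 and -5.31 against D3 on the scaled table, and to -5.73 and -5.27 without background correction. It was smallest with the fibroblast covariate, at -5.006 against R1 and -4.446 against D3. Leaving out 1 array at a time gave -5.153 to -5.1 against R1 and -4.73 to -4.63 against D3. For D3 against R1 the difference passed with array weights (-0.46), with the compared groups alone (-0.45), within clones 1 to 4 (-0.45), within clones 5 and above (-0.45) and with the fibroblast covariate (-0.56), and was -0.50 to -0.41 with 1 array left out (1 D3 array alone is assumed to vary like the other groups). OSKT against OSK was -0.30 and OSE against OSKT 0.24 within clones 1 to 4, and with 1 array left out they were -0.17 to -0.09 and 0.02 to 0.13. OSE against OSK turned to 0.003 with the replicate block and 0.062 with the fibroblast covariate, neither past the test, and was -0.116 to -0.004 with 1 array left out.

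Counts of naive genes called in D3 against R1 were 3, but 5 with median scaling and with the replicate block. They were 11 with array weights and with the fibroblast covariate, and 15 with the compared groups alone. Fits with only clones 1 to 4 or only clones 5 and above gave 11 and 8, on the same D3 and R1 arrays. Averaging near-identical arrays leaves 1 sample of each ES line, so its counts against R1 are not given. For OSKT against OSK it gave 0, where 4 were called within clones 1 to 4 and 13 within clones 5 and above. OSE against OSK gave 9 with the fibroblast covariate. With 1 array left out the counts were 13 to 16 (OSKT against R1), 16 to 18 (OSK), 19 to 19 (OSE), 2 to 3 (D3), 7 to 9 (OSKT against OSK) and 14 to 15 (OSE against OSK). Clone numbers did not pair the arrays, since OSKT and OSK clones of 1 number correlated at 0.01 to 0.63 and 2 of 11 correlated best with their own number.

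Signs also turned, each time against R1, most often for small differences, and also for Fgf4 (-1.51 in OSE and -0.55 in OSK), Peg3 (0.46 in OSE), Pecam1 (-0.41 in OSKT) and Gnas (0.39 in OSE). On the scaled table Rlim in OSK was -0.046, Lin28a in OSKT -0.018 and Utf1 in OSE -0.04. With median scaling they were -0.005 (Rlim in OSK), -0.12 (Lin28a in OSKT) and -0.048 (Utf1 in OSE), and Gnas in OSK was -0.02. Array weights gave Pou5f1 0.023, Lin28a -0.008 and Tcstv3 0.025 in OSKT, and Utf1 -0.068 in OSE. The replicate block gave Fgf4 -0.21 in OSKT and Utf1 -0.11 in OSE. Averaging near-identical arrays gave Rlim -0.004 in OSK. Within clones 1 to 4 Fgf4 was -0.47 and Gnas 0.13 in OSKT and Utf1 -0.16 in OSE. Within clones 5 and above Socs3 was 0.001, Rlim -0.017 and Gnas -0.012 in OSK, Nanog 0.018, Pou5f1 0.12 and Tcstv3 0.10 in OSKT, and Sox15 0.23 in OSE. With the fibroblast covariate Fgf4 was 0.13, Socs3 0.13, Rlim -0.007 and Gnas -0.16 in OSK, Pecam1 0.033 and Pou5f1 0.16 in OSKT, and Fgf4 0.02, Sox15 0.65, Peg3 -0.49 and Gnas -0.19 in OSE. With 1 array left out Rlim in OSK was -0.028 to 0.062 and Lin28a in OSKT -0.014 to 0.105. Of 91 calls of single named genes against R1, 13 did not hold with the fibroblast covariate and 8 on the scaled table. Each other alternative that ended any ended 1 to 5, averaging and single arrays left out aside. Averaging near-identical arrays ended the most calls, but it leaves 1 R1 sample and can lose calls through the sample number alone. The cause of the turns and losses was not tested. Near background, signal and not depth limits what these arrays can show.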

Other observations

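Tm7sf3, a seven-transmembrane protein, was among the features most like Zfp42 within the iPS clones (r = 0.757 over 30 clones with set means taken out) but had the opposite step between iPS and ES cells. It was at least 6.19-fold higher in OSKT, 8.74-fold in OSK and 4.72-fold in OSE clones than in R1. It was above background on 0 of 4 R1 and 0 of 2 D3 arrays. Tm7sf3 was kept for testing through its iPS arrays alone, so the direction of this difference was fixed in advance. Its r with Zfp42 over all 36 arrays was -0.905. Capsl and Asnsd1 had r of -0.04 each over the 36 arrays and of 0.773 and 0.738 within the clones. Likeness to Zfp42 among clones and likeness across the step from iPS to ES cells thus picked different features, with no feature among the top 6 of both. These features were named by their rank and carry no test of that rank.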
